A study of Drosophila melanogaster with 4 samples.

Results

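Broad HP1c domains are the widest stretches of the genome called as enriched for HP1c in chromatin of adult Drosophila melanogaster head nuclei. They were taken as every enriched region of at least 5000 bp on X, 2L, 2R, 3L and 3R in the replicate set, the authors' list that combines their ChIP libraries. The rule found 411 domains among 6884 enriched regions of these arms, and 7116 enriched regions over all sequences. The study used chromatin immunoprecipitation with sequencing (ChIP-seq), with 2 HP1c ChIP libraries and 2 input libraries that served as their controls. All 4 samples came from Oregon-R, a wild-type laboratory strain, as mixed adults raised in population cages, and the ChIP used the antibody HP1c (MO 462). Nothing in the labels tells whether each replicate had its own batch of flies, so the spread between them may be technical.

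HP1 proteins are small chromatin proteins with a chromodomain, which binds methylated histone tails, and a chromoshadow domain, through which they pair and recruit partners. Drosophila has several of them: HP1a is concentrated in heterochromatin, whereas HP1c is known as a euchromatic member that works with the zinc-finger proteins WOC and ROW. A called region is a stretch over which the ChIP library exceeds its input, so its width tells how far along the chromosome the called enrichment reaches.

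Domains were chosen by width in a list made from the same libraries. Widths, scores and replicate calls are therefore given as a description, without a test, and exact (Clopper-Pearson) 95% intervals on shares cover only the number of regions. Depth is unknown, since the lists hold no read counts. Coordinates follow FlyBase release 5, as the file headers state. The gene table used here describes release 6, so domains are named by position, no gene is assigned to them and no sequence is printed.

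The 411 domains were a small part of the regions and a larger part of the enriched sequence. They made up 5.97% of the regions (95% interval 5.42 to 6.56) and covered 2.83 Mb, which is 15.6% of the 18.1 Mb enriched on these arms and 2.38% of the arms themselves. The median domain was 6107 bp wide, the middle 50% ran from 5511 to 7454 bp, and the median narrower region was 2200 bp wide. Most domains were not far above the limit: 184 were 5000 to 5999 bp wide, 127 were 6000 to 7499 bp, 64 were 7500 to 9999 bp and 36 were at least 10000 bp. The domain at the limit lay on 2L from 21259929 to 21264928 (5000 bp, score 1.00), and the widest region below it on 3R from 21791530 to 21796525 (4996 bp, score 0.758). Widths ran on through the limit without a break, with 26 regions from 5000 to 5097 bp and 26 from 4903 to 4996 bp.

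The separate replicate lists held regions of the same size in similar numbers. Replicate 1 had 314 regions of at least 5 kb, or 5.37% of its 5851 regions, whereas replicate 2 had 288, or 5.14% of its 5599 (mean 301 ± 18.4, SD, n = 2). They covered 13.4% of the enriched sequence in replicate 1 and 12.9% in replicate 2, with median widths of 5951 and 6022 bp. The replicate set thus held more of them than either library.

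Every domain was called in both libraries. All 411 were overlapped by at least 1 bp of a region in replicate 1 and in replicate 2 (95% interval 99.1 to 100), as were 4540 of 6473 narrower regions, or 70.1% (69.0 to 71.3). Over all regions the share was 82.6% for replicate 1, 78.9% for replicate 2 and 71.9% for both. The combined list was made from the same libraries and width goes with score, so this agreement is part of how the domains were chosen.

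What the libraries shared less often was the full width. A replicate 1 region of at least 5 kb overlapped 308 domains, or 74.9% (95% interval 70.5 to 79.1), and a replicate 2 region of that size overlapped 278, or 67.6% (62.9 to 72.1). Among all regions these shares were 4.60% and 4.31%. Both libraries gave such a region at 233 domains (56.7%, against 3.38% of all regions), replicate 1 alone at 75, replicate 2 alone at 45 and neither at 58. The 233 domains were 6535 bp wide at the median and scored 1.98. The 58 held by neither library were 5570 bp wide at the median and scored 1.34, and the widest of them measured 8817 bp. Of those 58, 37 were split into 2 or more regions in at least 1 library, and the other 21 were single, shorter regions in each.

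**Figure D1:**
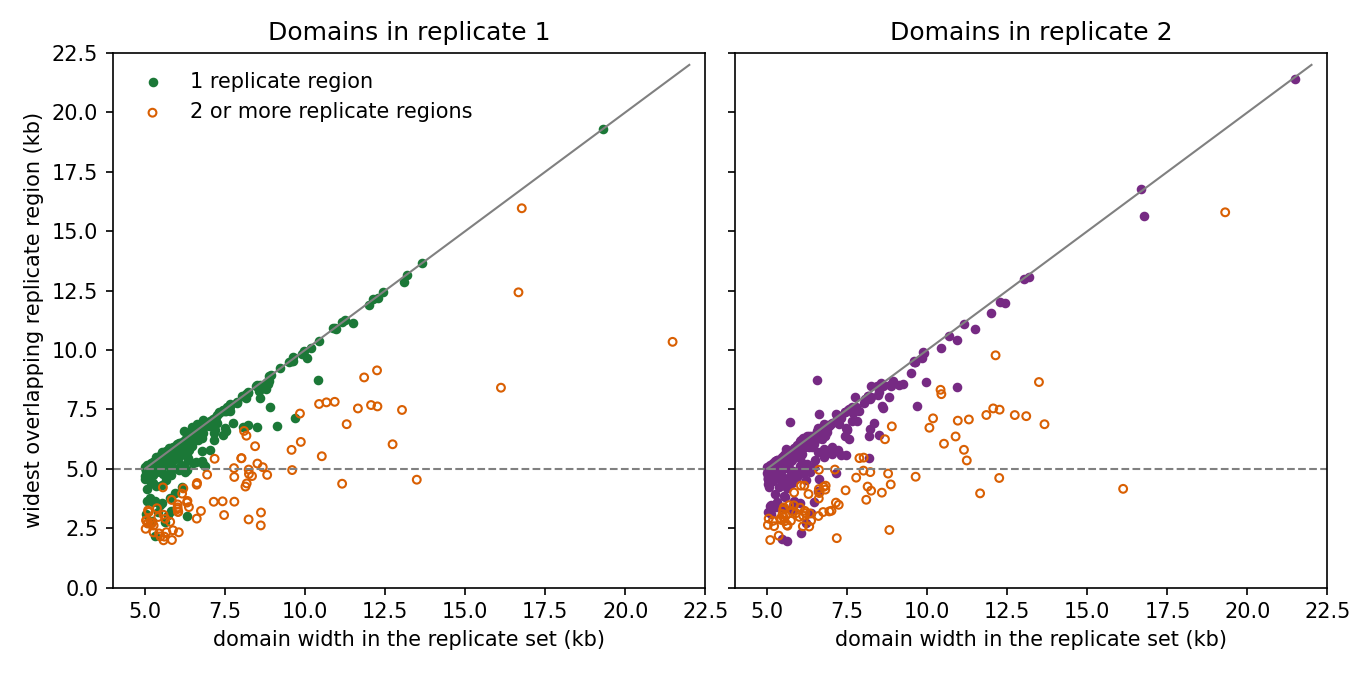
Width of each of the 411 domains in the replicate set (x axis, kb) against the widest region that overlaps it in replicate 1 (left) and in replicate 2 (right; y axis, kb). Filled points are domains that 1 replicate region overlaps and open points those that 2 or more overlap; the diagonal marks equal width and the dashed line 5 kb. Filled points lie mostly near the diagonal, and 308 domains in replicate 1 and 278 in replicate 2 reach the dashed line.

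Most of the domain sequence was nevertheless covered. Regions of replicate 1 covered a mean of 93.5% of domain length and those of replicate 2 covered 90.8% (mean 92.1% ± 1.96, SD, n = 2 replicates). For the 4540 narrower regions called in both libraries the means were 93.8% and 92.6%. Medians over domains were 97.8% in replicate 1 and 95.6% in replicate 2. At least 90% was covered in both libraries at 236 domains, or 57.4%, against 46.9% of all regions. Among narrower regions this held at 2996, which is 46.3% of all 6473. A region that lacks a call in a library cannot reach 90% there, so all 2996 were among the 4540 called in both. Of those 4540 they made up a larger share than the 57.4% of domains. Of the domain sequence without a replicate call, 134854 bp in replicate 1 and 215491 bp in replicate 2 lay at domain ends, and 40575 and 40176 bp lay in gaps between regions.

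A few of the 411 domains were covered by less than 50% in a library, 3 in replicate 1 and 7 in replicate 2. Among the 4540 narrower regions called in both libraries there were 22 and 25. Among all 6473 narrower regions, which include those without a call, there were 1224 and 1485. The domains named here were chosen after their values were seen. The lowest value belonged to X from 4224777 to 4230385, of 5609 bp, which replicate 1 covered to 75.3% with 2 regions and replicate 2 to 35.0% with 1. On 3R from 25838324 to 25843780, replicate 1 had 1 region over 98.9% of the domain, whereas replicate 2 covered 37.5%. On 3R from 18316124 to 18321424 the coverage was 40.6% in replicate 1 and 66.6% in replicate 2. The 3 domains scored 0.617, 0.512 and 1.21 in the replicate set, all below the domain median of 1.80.

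Splitting followed width. Exactly 1 region overlapped 325 domains in replicate 1 (79.1%, against 80.6% of all regions) and 324 in replicate 2 (78.8%, against 76.9%). The remaining 86 and 87 domains, 20.9% and 21.2%, held 2 or more regions, against 48 and 50 narrower regions (0.742% and 0.772%) and 1.95% and 1.99% of all regions. A wider region has more room for several calls, and the share split went up with width. In replicate 1 it was 13.6% of domains of 5000 to 5999 bp, 15.7% of those up to 7499 bp, 35.9% of those up to 9999 bp and 50.0% of the 36 widest. In replicate 2 the shares were 12.0%, 22.0%, 23.4% and 61.1%.

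The same domains were not always split in both libraries. Single in both were 278 domains (67.6%, against 68.8% of all regions), 46 were split in replicate 1 alone, 47 in replicate 2 alone and 40 in both. Domains split in both had a median score of 1.42 and a median width of 7045 bp, whereas domains single in both had 1.92 and 5887 bp. Scores of these classes overlapped widely, with a middle 50% from 1.03 to 2.11 and from 1.46 to 2.41.

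Gaps inside domains were short. Replicate 1 had 98 gaps with a median of 192 bp and replicate 2 had 93 with a median of 248 bp, and the longest were 1910 and 2935 bp. One of the 93 in replicate 2 is a pair of regions that touch, counted as a gap of 0 bp. Most lay in the central 50% of their domain, 81 of 98 in replicate 1 and 84 of 93 in replicate 2. A gap needs a region on each side, and the median region was 2272 bp wide in replicate 1 and 2281 bp in replicate 2. A central position is therefore partly fixed in advance. Where both libraries split a domain, they made 46 gaps each, and 28 of these 46 (60.9%) shared at least 1 bp with a gap of the other library.

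Domain edges differed more between libraries than those of narrower regions. The outermost starts lay a median of 110 bp apart and the ends 88 bp, against 63 and 62 bp for narrower regions called in both libraries. Both edges lay within 100 bp at 106 domains (25.8%) and at 2014 narrower regions (44.4%). Starts were more than 1 kb apart at 39 domains (9.49%) and 142 narrower regions (3.13%), and ends at 45 domains (10.9%) and 117 narrower regions (2.58%).

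The 10 widest domains show these patterns base by base. The widest, of 21478 bp, occupied X from 7584505 to 7605982 and scored 2.15. Replicate 2 gave it as a single region of 21402 bp (score 2.39). Replicate 1 had 3 regions of 4020, 6929 and 10343 bp with scores of 1.65, 1.41 and 2.27, and they covered 99.1% of the domain.

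The next, on 2R from 17583455 to 17602759 (19305 bp, score 2.26), was a single region of 19313 bp in replicate 1 and regions of 2717 and 15795 bp in replicate 2. On X from 8779974 to 8796741 (16768 bp, score 1.99), both libraries held a long region, which measured 15965 bp in replicate 1 and in replicate 2 15630 bp. A further region of 1976 bp in replicate 1 reached past the end of that domain, and ends there differed by 2029 bp. On X from 14101048 to 14117712 (16665 bp, score 1.69), replicate 2 had 1 region of 16787 bp, and replicate 1 had 12427 and 3304 bp.

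The domain with the most pieces, of 16118 bp, occupied X from 11480243 to 11496360, and its score of 1.11 was below the domain median. Replicate 1 divided it into 4 regions of 2004, 8413, 2062 and 3573 bp, with scores from 0.948 to 1.42. Replicate 2 divided it into 6, of 2020, 2001, 2005, 1993, 4156 and 3342 bp, with scores from 0.931 to 1.34. Of the 6 in replicate 2, the first 4 were thus of nearly equal width and lay side by side. Together the pieces covered 99.5% of it in replicate 1 and 96.3% in replicate 2, so the libraries called nearly all of this stretch while dividing it differently.

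Of the other 5, only the domain on 2L from 2191320 to 2204504 (13185 bp, score 2.65) was a single region in both, with a width of 13152 bp in replicate 1 and of 13089 bp in replicate 2, and with starts 17 bp and ends 46 bp apart. On 3R from 5902432 to 5916093 (13662 bp, score 2.22), replicate 1 had 1 region of 13650 bp and replicate 2 had 6875 and 6188 bp with scores of 2.73 and 1.37. On 3R from 10102629 to 10115656 (13028 bp, score 1.69), replicate 2 had 1 region of 12967 bp and replicate 1 had 4172 and 7476 bp with scores of 2.51 and 1.05. In both cases the pieces of a split domain differed in score by more than 1.

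On X from 3632609 to 3645700 (13092 bp, score 2.66), replicate 1 had 1 region of 12848 bp, and replicate 2 had 7215 and 2945 bp and stopped 1913 bp short of the replicate 1 end. The domain on X from 3564614 to 3578102 (13489 bp, score 1.19) was divided into 3 regions in replicate 1, which covered 83.8%, and 2 in replicate 2, which covered 93.3%. A second domain began 163 bp beyond its end, and the stretch from 3564614 to 3590513 was 99.4% domain over 25900 bp.

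**Figure D2:**
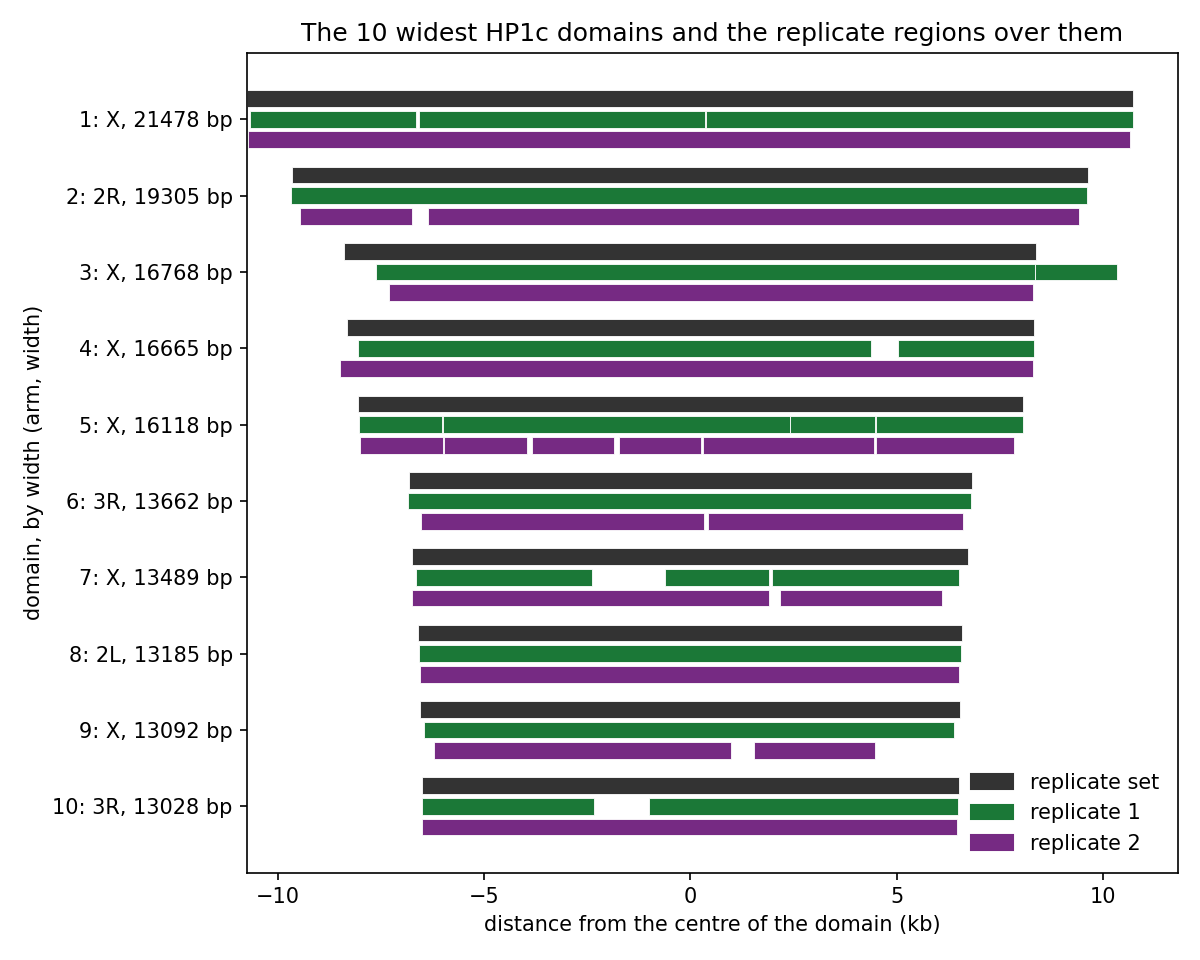
The 10 widest domains, widest at the top, drawn to scale as distance from the domain's centre (kb). In each row the upper bar is the domain in the replicate set and the bars under it are the overlapping regions of replicate 1 and of replicate 2; white breaks are gaps. The fifth row, of 16118 bp on X, is divided into 4 regions in replicate 1 and 6 in replicate 2, and the eighth, of 13185 bp on 2L, is unbroken in both.

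Domains scored high, but the highest scores belonged to narrower regions. In the replicate set the median score was 1.80 in domains and 0.675 in narrower regions. In replicate 1 it was 1.81 in regions of at least 5 kb and 0.898 in narrower ones, and in replicate 2 it was 2.13 and 1.05. The difference of medians was 0.910 in replicate 1 and 1.09 in replicate 2 (mean 0.998 ± 0.124, SD, n = 2). In the replicate set it was 1.12, and it was 0.267 among regions in the upper 50% of scores, which leaves out low-scoring regions of both kinds by construction. Of the domains, 253 (61.6%) were in the upper 25% of scores and 19 (4.62%) in the lower 50%, against 22.7% and 52.9% of narrower regions. Domains ranged from 0.435 to 3.46, and narrower regions reached 4.51. Of the 100 highest-scoring regions, 1 was a domain in the replicate set, 1 was at least 5 kb wide in replicate 1 and 0 in replicate 2.

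Median score increased with width between 1500 and 2999 bp and changed little beyond. In the replicate set the median score was 0.270 at 1500 to 1999 bp, 0.851 at 2000 to 2499 bp and 1.66 at 2500 to 2999 bp. It was 1.38 at 3000 to 3999 bp and 1.65 at 4000 to 4999 bp. Among the domain classes it stayed between 1.69, at 6000 to 7499 bp, and 1.97, at 10000 bp or more. Both libraries also had a lower value at 3000 to 3999 bp, with 1.46 in replicate 1 after 1.72 in the class below it and 1.69 in replicate 2 after 2.13.

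Spearman's rho between width and score was 0.0362 over the 411 domains, against 0.760 over 6473 narrower regions. In replicate 1 the values were -0.0384 and 0.756, and in replicate 2 they were 0.0558 and 0.771. These are descriptions over regions of 1 list, whose widths and scores come from the same reads, and the range of widths differs between the groups.

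**Figure D3:**
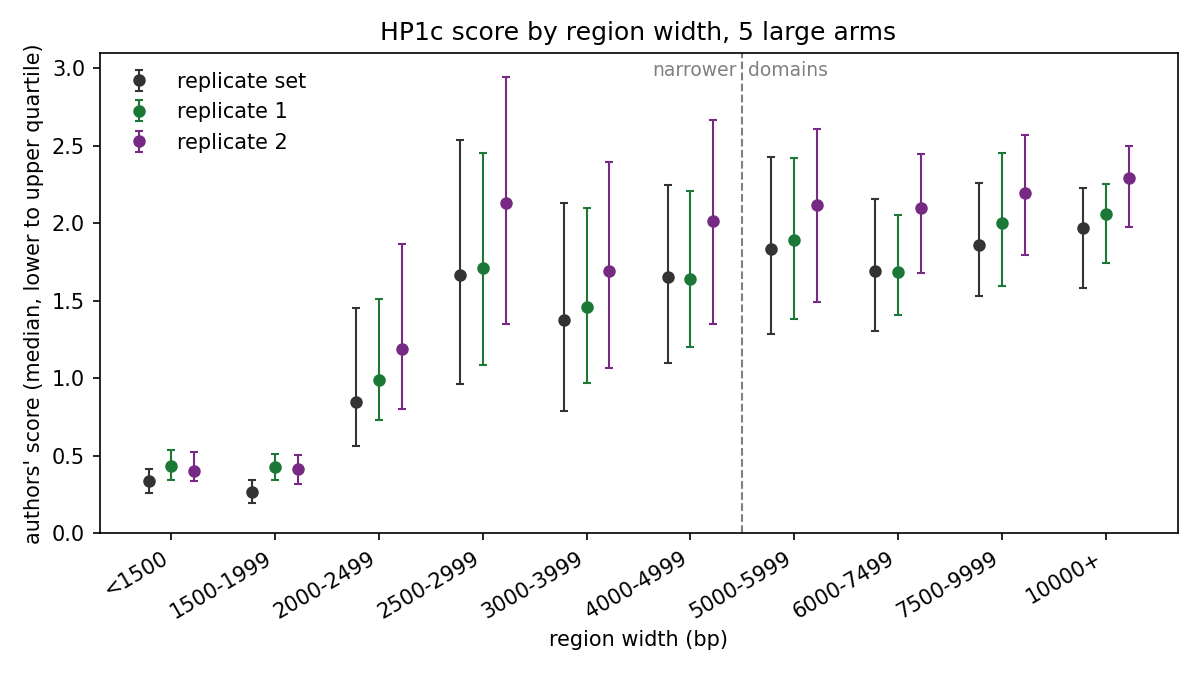
Median of the authors' score (y axis, score units) by class of region width (x axis, bp) in the replicate set, replicate 1 and replicate 2; bars run from the 25th to the 75th percentile of regions, and the dashed line separates narrower regions from domains. Medians climb from 1500 to 2999 bp and lie between 1.69 and 1.97 in the domain classes of the replicate set.

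The relative order of domains by score was similar in both libraries. The replicate region with the largest overlap lay at a median percentile of 76.3 among all regions of replicate 1 and 76.1 in replicate 2, against 54.8 and 52.2 for narrower regions called in both. Over domains, Spearman's rho between the scores of the 2 libraries was 0.820, and over those narrower regions it was 0.889. Both are descriptions of regions of shared position. The percentile was higher in replicate 2 at 151 of the 411 domains and at 1803 of those 4540 narrower regions. It was higher there at nearly all domains near the centromere of 2R and at several near that of 2L, as given below.

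The highest-scoring domains of 2R, 3L and 2L stood alone. That of 2R ran from 6042693 to 6048983 (6291 bp), scored 3.46 and ranked 93 among all regions. Its score was 3.56 in replicate 1, as a single region. Replicate 2 split it into 2 regions, and the one with the largest overlap, of 3938 bp, scored 4.02. That of 3L ran from 14042062 to 14047345 (5284 bp, 3.42), with 3.31 in replicate 1 and 3.56 in replicate 2, and that of 2L from 3801975 to 3807348 (5374 bp, 3.38), with 3.21 and 3.61. Both were single regions in each library, and none of the 3 had another region within 10 kb.

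That of X ran from 8451758 to 8456843 (5086 bp, 3.27), with 3.29 in replicate 1 and 3.31 in replicate 2. It was nearly as isolated, with its nearest region 9965 bp away and 0.175% of the 10 kb on either side covered. That of 3R ran from 12045437 to 12052458 (7022 bp, 3.03), with 3.09 and 3.14, and differed from the others in that regions covered 71.8% of the 10 kb on either side of it. The widest domain of an arm was not its highest-scoring on any of the 5. The widest of 3L, from 695863 to 706303 (10441 bp), scored 1.24, with 1.23 in replicate 1 and 1.35 in replicate 2.

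The X chromosome carried the most domains. It held 148 of the 411, or 36.0% (95% interval 31.4 to 40.9), with 22.7% (21.7 to 23.7) of narrower regions and 18.8% of the length of the 5 arms. Arm 2L had 72, 2R had 66, 3L had 64 and 3R had 61. Of the regions of X, 9.15% (7.79 to 10.7) were domains, against 4.99% (4.42 to 5.62) of those on the autosomal arms, a ratio of 1.83. Replicate 1 by itself gave 1.92 and replicate 2 gave 1.79 (mean 1.86 ± 0.0942, SD, n = 2). With regions closer than 500 bp merged it was 1.49, and with a limit of 4000 bp 1.37.

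By length, X held 6.60 domains per Mb and the autosomal arms 2.72. Regions of at least 5 kb covered 3.20% ± 0.310 of X and 1.32% ± 0.0503 of the autosomal arms (SD, n = 2 replicates). Among the autosomal arms, 2L had the highest share of regions this wide, 5.79% ± 0.596 (SD, n = 2), and 3R the lowest, 3.64% ± 0.289. Arms 2R (4.39% ± 0.0634) and 3L (4.02% ± 0.475) differed by less than the SD of 3L but by more than that of 2R. Arms 3L and 3R also differed by less than the SD of 3L but by more than that of 3R. Arm 3L lay above 3R in each library, with 4.36% and 3.84% in replicate 1 and 3.68% and 3.43% in replicate 2.

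**Figure D4:**
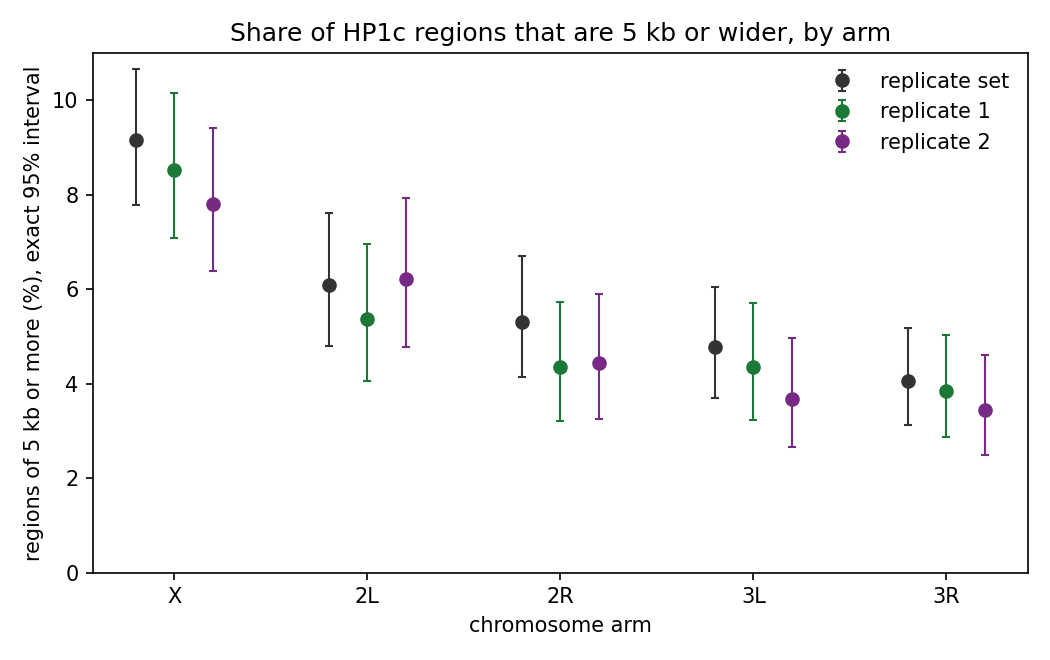
Share of enriched regions that are at least 5 kb wide (y axis, %) on each chromosome arm (x axis) in the replicate set, replicate 1 and replicate 2; bars are exact 95% intervals, which cover the number of regions only. X lies highest in every list, at 9.15% in the replicate set, 8.53% in replicate 1 and 7.80% in replicate 2.

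The share on X changed with width near 5 kb. It was 39.7% (95% interval 32.6 to 47.1) of 184 regions of 5000 to 5999 bp in the replicate set, and 22.7% (18.6 to 27.2) of 384 regions of 4000 to 4999 bp. In replicate 1 it was 36.9% (29.4 to 44.9) of the wider class and 22.8% (18.4 to 27.8) of the narrower one, and in replicate 2 it was 38.0% (30.0 to 46.5) and 26.1% (21.2 to 31.6). Below 5 kb, no class of the replicate set exceeded 26.3%, and the classes from 6000 bp up lay between 29.1% and 41.7%. These intervals were computed after the classes were seen, and the lists share reads.

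**Figure D5:**
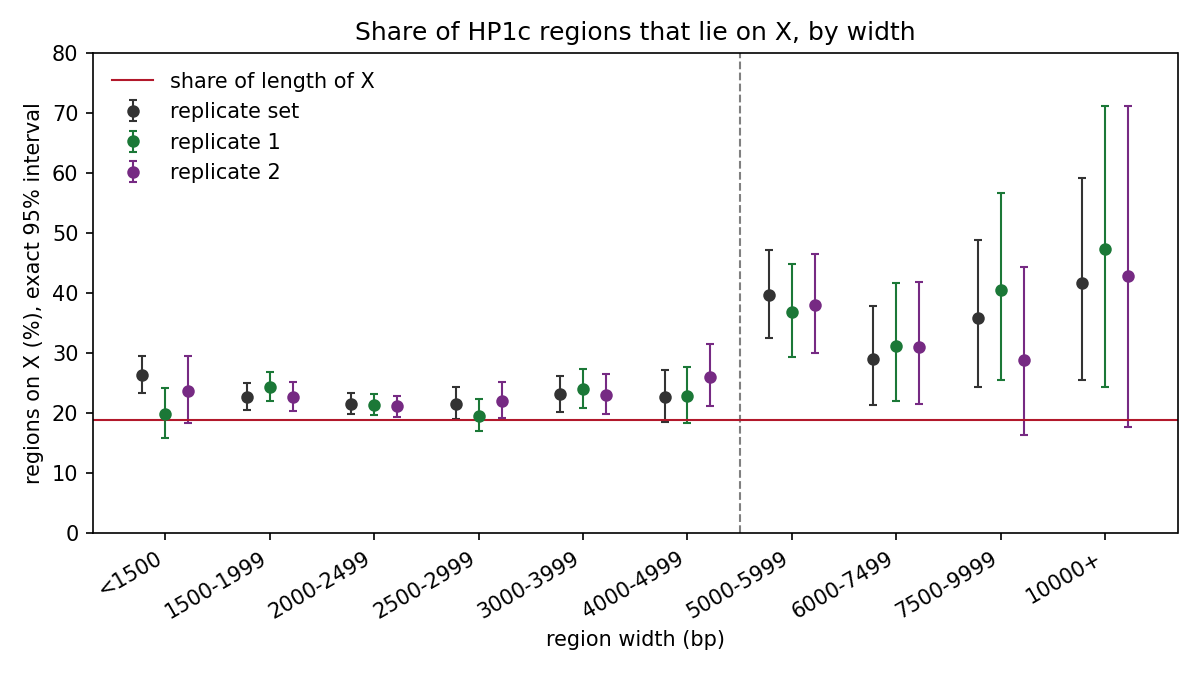
Share of regions that lie on X (y axis, %) by class of region width (x axis, bp) in the replicate set, replicate 1 and replicate 2; bars are exact 95% intervals that cover the number of regions only, the dashed line separates narrower regions from domains, and the red line is the share of X in the length of the 5 arms, 18.8%. Points below 5 kb lie between 19.6% and 26.3%, and those of 5000 to 5999 bp between 36.9% and 39.7%.

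The size and score of domains differed little between X and the autosomal arms beside their spread within either. Their median width was 6015 bp on X and 6157 bp on the autosomal arms, and their median score 1.88 and 1.75. X held 15 of the 36 domains wider than 10 kb, and the autosomal arms held the other 21, with 8 of them on 2R. At least 1 library split 48 of 148 domains on X (32.4%) and 85 of 263 on the autosomal arms (32.3%).

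Along the arms, a larger share of domains than of narrower regions lay near the centromeres of chromosome 2. Of the 66 domains of 2R, 17 (25.8%, 95% interval 15.8 to 38.0) lay in the 2 Mb nearest its centromere, against 63 of 1176 narrower regions (5.36%). The separate lists gave 11 of 47 in replicate 1 and 14 of 45 in replicate 2. These 17 domains were wide, with a median of 8248 bp beside 6468 bp for all domains of 2R, and scored 1.59 at the median. Their score percentiles differed between libraries. All but the domain from 72803 to 81921 (79.3 in replicate 1, 72.2 in replicate 2) lay higher in replicate 2. The domain from 1225181 to 1233358 had 47.9 and 81.7, that from 1249665 to 1255683 had 37.2 and 73.2, and that from 394502 to 400081 had 21.8 and 24.9. The reason was not tested.

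On 2L the proximal 2 Mb held 12 of 72 domains (16.7%, 8.92 to 27.3), against 61 of 1109 narrower regions (5.50%), and 7 of 54 in replicate 1 and 10 of 60 in replicate 2. On 3R the order was the other way, with 2 of 61 domains (3.28%) and 132 of 1442 narrower regions (9.15%). X held 8 of 148 domains there (5.41%) and 66 of 1469 narrower regions (4.49%), and 3L held 4 of 64 (6.25%) and 36 of 1277 (2.82%). Over the 5 arms the proximal stretches held 10.5% of domains and 5.53% of narrower regions on 8.40% of the length. In the separate lists those shares were 7.64% and 5.49% in replicate 1, and 11.1% and 5.22% in replicate 2. As on 2R, several of the 12 proximal domains of 2L had a higher score percentile in replicate 2. The domain from 22644795 to 22653031 had 8.31 in replicate 1 and 47.2 in replicate 2, and that from 22246751 to 22252371 had 54.9 and 89.6. The domain from 22464275 to 22472898 went the other way (83.2 and 73.5), as did that from 21259929 to 21264928 (50.1 and 49.6). The reason was not tested.

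Domain numbers varied along the arms. Of 117 full bins of 1 Mb, 4 held no domain, none of them on X, and the median was 3. Bins of X had a median of 6 domains and autosomal bins 2. The fullest bins were X from 6000001 to 7000000 and from 13000001 to 14000000, with 12 each. Replicate 1 had 10 regions of at least 5 kb in each of these bins, and replicate 2 had 9 and 10. On 2R the bin from 1000001 to 2000000 held 10 domains among 43 regions, whereas the first of those X bins held 12 among 107. Counts of domains and of all regions per bin had a Spearman's rho of 0.358, given as a description over 117 bins that share arms and libraries. The empty bins lay on 2R from 15000001, on 3L from 6000001 and 7000001 and on 3R from 24000001, and they held 38, 41, 58 and 46 regions. The separate lists also had no region of at least 5 kb in these bins, except that replicate 2 had 1 in the bin of 3R.

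Sequence around domains was richer in other regions than sequence around narrower ones. Regions covered a median of 27.5% of the 10 kb on either side of a domain, against 18.4% beside narrower regions. Regions of at least 5 kb had 24.4% in replicate 1 and 23.9% in replicate 2, and narrower ones 16.6% and 15.8%. The median gap to the nearest region was 2139 bp for domains and 2821 bp for narrower regions, with 2187 and 3281 bp in replicate 1 and 2645 and 3326 bp in replicate 2. More than 10 kb from any other region lay 37 domains (9.00%) and 1099 narrower regions (17.0%). Both measures changed with width among narrower regions. In the replicate set, those of 1500 to 1999 bp had 13.2% flank cover and a gap of 3679 bp. Those of 2500 to 2999 bp had 23.2% and 2239.5 bp, near the 25.9% and 2314 bp of domains of 5000 to 5999 bp. Flank cover in these last 2 classes was 19.1% and 24.9% in replicate 1, and 19.1% and 21.9% in replicate 2. With regions closer than 500 bp merged in the replicate set, the flank values were 24.0% beside 610 domains and 16.3% beside narrower regions, and the gaps 2761 and 3595 bp.

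Some domains were neighbours of one another. Another domain lay within 10 kb of 102 of the 411 (24.8%), and these formed 47 groups, 40 of them pairs and 25 of them on X. In the separate lists the share was 17.8% in replicate 1 and 19.8% in replicate 2. X held 148 of the 411 domains, at 6.60 per Mb against 2.72 on the autosomal arms. Whether its 25 groups exceed what that density would give was not tested. The largest group had 4 domains on X from 6222074 to 6249317, with 92.3% of 27244 bp inside domains. On 2R, 3 domains filled 88.3% of the 30503 bp from 1225181 to 1255683, and 3 filled 86.5% of the 30022 bp from 6427276 to 6457297. The median distance from a domain to the next was 52.4 kb.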

How the data were processed

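ChIP-seq of HP1c in head nuclei gave 3 lists of regions, 1 for each of 2 ChIP libraries and 1 for the replicate set. The submitters' processing notes name Bowtie 0.12.7. The sources used here do not name the region caller, its limits or the way replicates were joined. The authors deposited a score for every region on a scale that nothing states, so scores were ranked within a list and not read as fold enrichment. Scores of a domain in different lists are printed side by side. Differences of medians were averaged over the replicate lists, which takes their scales to be alike. Starts and ends are in bp on FlyBase release 5, per the file headers. Inputs were used only through the authors' calls. Depth is unknown.

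The domains, comparisons and named regions were chosen with earlier results of these data known. Named were the 10 widest domains and the widest and highest-scoring of each arm. Also named were the 3 with the most regions of 1 replicate (ties at 3 regions went to the wider domain) and the regions next to the limit. Added after their values were seen were 3 poorly covered domains and the proximal domains of 2R and 2L given with both percentiles. Overlap meant at least 1 bp. Proximal ends are the right end of X, 2L and 3L and the left end of 2R and 3R. The score of a domain in a replicate is that of the region with the largest overlap. No hypothesis was tested, and SDs are over 2 replicates. Alternatives were other width limits, the upper 50% by score, merging within 500 bp, a larger overlap and each replicate's own list. Software was scipy 1.17.1, pandas 2.3.3 and numpy 2.4.6 under Python 3.11.15, with figures by matplotlib 3.10.9. The interval steps were tested on simulated data and found all 200 of 200 planted domains among 2000 regions.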

Additional observations from a re-analysis of the deposited data

How the results depend on the processing

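Over 14 results, 41 of 86 alternatives stayed within the SD between replicates (for the edge difference, the SD of the start and end medians; for the number of domains, 1.5 times the count), 45 moved beyond it and 0 changed the sign of the score difference. The SDs rest on 2 values and some are near 0, and subsets and width limits change values by construction; beyond that, the cause was not tested. With a limit of 4000 bp there were 795 domains with 25.0% of enriched sequence, 99.5% were called in both libraries, 84.8% were single regions, the X ratio was 1.37, 29.1% had another domain within 10 kb, the rank correlation was 0.117 and flank cover 23.5%. With a limit of 7500 bp these were 100 domains, 5.50%, no change in calls, 61.0%, 2.00, 10.0%, 0.166 and 30.6%; 59.0% then reached the limit in a replicate, edges differed by 120.5 bp and 18.0% were proximal. In the upper 50% by score, domains held 23.7% of enriched sequence, 90.3% were called in both libraries, cover was 83.6%, 87.1% were single, the X ratio was 1.73, the gap 3872 bp, the score difference 0.267, 23.2% had a domain within 10 kb and flank cover was 17.1%. Merging within 500 bp gave 23.4% of enriched sequence, 99.8% called in both, 89.6% cover, 82.5% single, an X ratio of 1.49, a gap of 2761 bp, a score difference of 0.987 and flank cover of 24.0%. From each replicate's own list, the number ran from 288 to 314, the share of enriched sequence from 12.9% to 13.4%, the X ratio from 1.79 to 1.92, the gap from 2187 to 2645 bp, the score difference from 0.910 to 1.09, the proximal share from 7.64% to 11.1%, domains within 10 kb from 17.8% to 19.8%, the rank correlation from -0.0384 to 0.0558 and flank cover from 23.9% to 24.4%. Calls, cover, single regions and width in a replicate ran from 100% to 100%, 90.8% to 93.5%, 78.8% to 79.1% and 67.6% to 74.9%. The edge difference needs both libraries and has no such value. The last 4 results of the list (proximal share, domains within 10 kb, rank correlation and flank cover) and their 24 alternatives were added after seeing the data. No paired analysis was possible because the inputs have no values of their own here. Depth is unknown, so its effect could not be examined.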

Other observations

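A few narrower regions of the replicate set were wide in a library. Regions of at least 5 kb in replicate 1 overlapped 9 of the 6473 narrower regions and those in replicate 2 overlapped 19. Both libraries did so at 0 of them. The narrower regions were chosen by width in a list made from the same libraries, so this count may be partly fixed by that choice. The replicate set also names 15 depleted regions on these arms, and replicates 1 and 2 name 1 each. None of the 17 overlapped a domain, and the nearest to one, from the replicate set, lay 8610 bp away. Enriched and depleted calls of the same list would hardly overlap, and domains cover 2.38% of the arms. The lack of overlap was therefore likely in advance and tells little about domains.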
